A study of Homo sapiens with 6 samples.

Results

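miR-7 was represented in the deposited table by 3 of 2656 mature microRNA (miRNA) names, taken by name, with earlier results of these data known. They are miR-7-5p, the guide strand shared by all miR-7 hairpins, and miR-7-1-3p and miR-7-2-3p, the passenger strands of the hairpins MIR7-1 and MIR7-2. Small RNA was sequenced from KPL4, a long-established cell line from a human breast adenocarcinoma, in which ERBB2 is amplified. The first group held 3 libraries of cells in which the gene of estrogen receptor β (ERβ) was knocked out and ERβ was supplied again as an exogenous construct. The second held 3 libraries labelled only as ERβ knockout cells, so all samples carry the knockout. No sample is labelled as knockout cells with an empty vector, and whether the knockout cells carry one is not said. The sources used here give neither the promoter of the exogenous ERβ nor whether one knockout clone gave rise to both groups. What ERβ does and what else sets these cells apart cannot be told apart. The labels do not say whether replicates came from separate cultures, and a p-value here speaks only to the spread among the 6 samples, which may be technical.

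A miRNA is cut from a hairpin precursor as a duplex, of which the guide strand is loaded into Argonaute and the passenger strand is mostly degraded. The guide pairs through its seed, bases 2 to 8, with messenger RNAs and lowers their output. miR-7 is best known from neurons and endocrine cells, and in cancer cells as a repressor of EGFR, the epidermal growth factor receptor, and of the signalling proteins IRS1, IRS2 and PAK1. The circular RNA CDR1-AS binds miR-7 through many sites.

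The strands differ in what they can show, and their RefSeq sequences (GRCh38.p14, 5′ to 3′) are printed for that reason, with the seed in capitals.
miR-7-5p: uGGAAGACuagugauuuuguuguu
miR-7-1-3p: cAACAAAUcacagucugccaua
miR-7-2-3p: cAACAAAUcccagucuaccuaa
The guide has 24 bases and the passengers have 22 each. Both passengers have the same seed and differ at 4 positions, counted from the 5′ end and written with the base of miR-7-1-3p first: A10C, G17A, A20U and U21A. Reads of the passengers can therefore be assigned to a hairpin, whereas a read of miR-7-5p cannot. No other name in the table with a RefSeq sequence (2367 of 2656 names had one) shared the seed of miR-7-5p. miR-6077, which shares bases 2 to 7, had no counts in any library.

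The hairpins of MIR7-2 and MIR7-3, with the guide in capitals, show the same guide in different surroundings.
MIR7-2: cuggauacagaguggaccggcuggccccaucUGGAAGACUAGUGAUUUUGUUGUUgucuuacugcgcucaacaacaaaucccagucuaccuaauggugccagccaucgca
MIR7-3: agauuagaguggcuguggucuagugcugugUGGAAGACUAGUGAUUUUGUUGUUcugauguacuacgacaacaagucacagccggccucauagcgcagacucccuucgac
In the GENCODE release 29 annotation (GRCh38), MIR7-1 lies on the minus strand of chromosome 9 (83969748 to 83969857) within HNRNPK, the gene of an abundant RNA-binding protein. An exon covers it in 1 of 11 HNRNPK transcripts, and in the others it is not exonic. MIR7-2 lies on the plus strand of chromosome 15 (88611825 to 88611934) and overlaps only MIR3529, annotated on the opposite strand. MIR7-3 lies on chromosome 19 (4770670 to 4770779, plus strand) and is covered by no exon of its host, the long noncoding RNA MIR7-3HG. A passenger strand of MIR7-3 was not analysed here.

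The seed of miR-7-5p pairs with the letters GTCTTCC. Searched on the transcript strand only, they occur 3 times in the 6011-base 3′ untranslated region (UTR) of the EGFR transcript with the longest coding length (GENCODE release 29). The windows are shown with the match in capitals because EGFR is the target for which miR-7 is known in tumours.
EGFR, chr7:55206059-55206082, plus strand: gagcacaagccacaaGTCTTCCag
EGFR, chr7:55206342-55206365, plus strand: tagactgacttgtttGTCTTCCat
EGFR, chr7:55208337-55208360, plus strand: actccatccctgaagGTCTTCCtg
Of 725 3′ UTRs between 0.8 and 1.25 times as long, 35.4% held the letters at least once and 1.52% as often as EGFR. IRS1 (4955 bases) and IRS2 (3606 bases) held 2 matches each and PAK1 (351 bases) held 1. The 3′ UTRs of ERBB2 and ERBB3 held none, which says only that these letters are not there. Over all 18881 3′ UTRs, 10.0% held a match. These are letter matches and not measured binding, and no messenger RNA was measured in these libraries.

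miR-7-5p was among the most abundant miRNAs of KPL4 cells and was somewhat higher with exogenous ERβ, a difference that did not pass the test. Its expected count was 185317, 271823 and 269164 in ERβ libraries 1, 2 and 3, against 171862, 161256 and 155346 in knockout libraries S1, S2 and 3. Every value lay within 0.01 of a whole number, although 6.33 to 7.27% of values per library were not whole. This was 1.80, 1.90 and 1.90% of all counts with ERβ, against 1.45, 1.32 and 1.46% in knockout cells. By rank it was number 11 in each ERβ library, against 14, 20 and 13 in knockout libraries S1, S2 and 3. The shares did not overlap between the groups. Nor did those of miR-7-1-3p, at 0.00773, 0.00788 and 0.00797% with ERβ, against 0.00693, 0.00681 and 0.00678% in knockout cells. Shares carry no correction for composition, and on library totals the median log2 fold change of all tested miRNAs was 0.14. How many of all miRNAs had shares without overlap was not counted, so these gaps are not read as a result about miR-7. On the scaled values given below, 39.8% of tested miRNAs had no overlap, and miR-7-1-3p did overlap.

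Scaled with TMM factors, which correct library totals for differences in composition, miR-7-5p had 16699, 18171 and 18198 CPM (counts per 1000000) with ERβ, against 15624, 13327 and 15802 CPM in knockout cells. The lowest ERβ library, number 1, lay above the highest knockout library, number 3. Such gaps were common: of the 783 miRNAs abundant enough to test, 39.8% had no overlap between the groups, and in 18.9% every ERβ library lay above every knockout library. The means were 17690 ± 858 CPM with ERβ and 14918 ± 1381 CPM in knockout cells (SD, n = 3 each). The log2 fold change, ERβ over knockout, was 0.25 ± 0.08 (SE; 95% interval 0.06 to 0.43), a fold of 1.19. By edgeR's quasi-likelihood test the unadjusted p was 0.0148, and 34.4% of tested miRNAs had one under 0.05. The Benjamini-Hochberg adjusted p was 0.0592, above the threshold of 0.05 that 23.1% of tested miRNAs passed, 77 higher (9.83%) and 104 lower (13.3%).

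**Figure D1:**
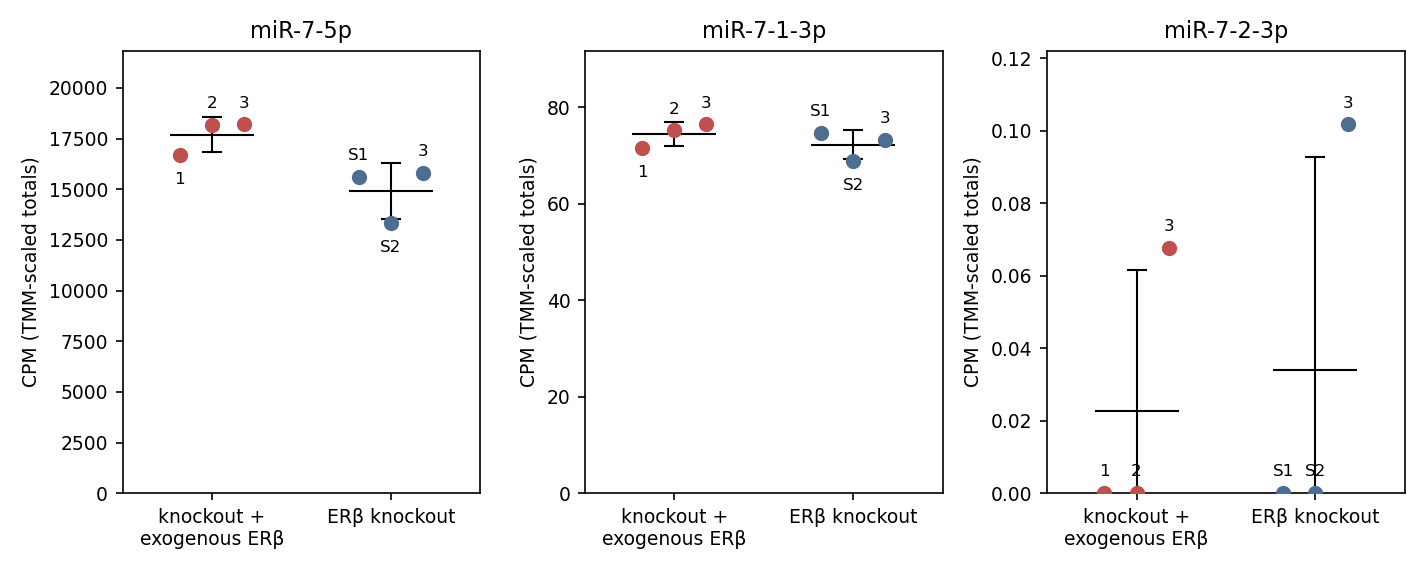
Level of each miR-7 strand by library, in CPM on TMM-scaled totals, each panel with its own axis from 0; points are libraries with their names, the horizontal line is the mean and the bar is the SD (n = 3 per group). miR-7-5p was at 16699 CPM or more in every library with exogenous ERβ and at 15802 CPM or less in every knockout library, miR-7-1-3p overlapped, and miR-7-2-3p had at most 1 count in any library.

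In size the difference was ordinary: 51.7% of tested miRNAs had a larger absolute log2 fold change. Among the 50 most abundant miRNAs 17 were called lower and 2 higher, beside 13.3% lower and 9.83% higher over all tested miRNAs. The log2 fold changes of the 50 had a median of -0.15. The 2 called higher were miR-205-5p (0.52 ± 0.08) and miR-374a-5p (0.48 ± 0.13). miR-205-5p, a basal epithelial miRNA, was called in 14 of 14 alternatives. miR-374a-5p lost the call in 4 of 14, among them without any single ERβ library (edgeR adjusted p 0.0583 to 0.114). Only these 2 of the 50 had a higher log2 fold change than miR-7-5p. The median over all tested miRNAs was -0.01. These calls were made with TMM scaling. By library totals the calls over all tested miRNAs became 146 higher and 61 lower, and those among the 50 were not counted again.

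The 3 miRNAs next above miR-7-5p in mean CPM were miR-93-5p, miR-27b-3p and miR-103a-3p, and the 3 next below were miR-126-3p, let-7b-5p and miR-191-5p. Of these 6, miR-27b-3p, miR-126-3p and miR-191-5p fell (adjusted p = 0.00149, 0.00795 and 0.0239; edgeR). The call held for miR-27b-3p in 14 of 14 alternatives, for miR-126-3p in 9 and for miR-191-5p in 8. Without single ERβ libraries the adjusted p was 0.0309 to 0.0746 for miR-126-3p and 0.102 to 0.124 for miR-191-5p. let-7b-5p, at a log2 fold change of -0.34 ± 0.11, had an adjusted p of 0.0505 and did not pass, nor did miR-93-5p (0.21 ± 0.13) or miR-103a-3p (-0.16 ± 0.08). miR-93-5p was the only one of the 6 with a fold change on the same side as miR-7-5p. Its CPM were 22458, 22686 and 21974 with ERβ, against 17751, 24062 and 16299 in knockout cells, where library S2 was the highest and the groups overlapped.

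**Figure D2:**
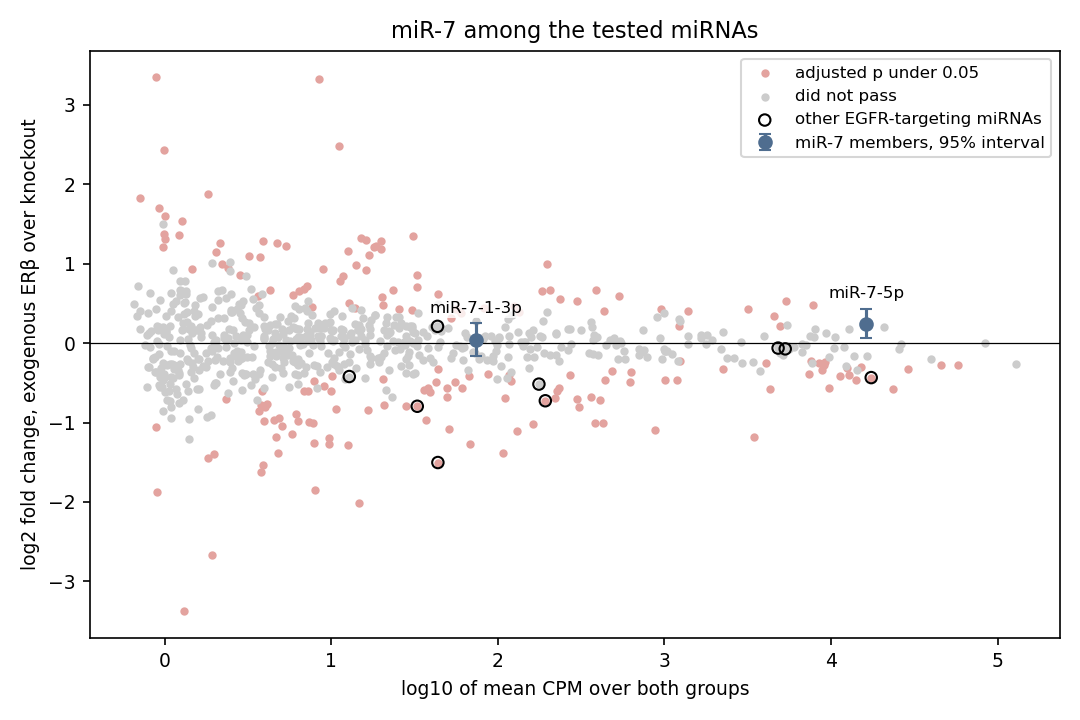
Log2 fold change (exogenous ERβ over knockout) against the log10 mean CPM of the 783 tested miRNAs; coloured dots passed an adjusted p of 0.05, open circles are the other EGFR-targeting miRNAs and the filled points are miR-7-5p and miR-7-1-3p with their 95% intervals. miR-7-5p (0.25) stands at the abundant end, where most called miRNAs were lower, and its interval stays above 0, while that of miR-7-1-3p includes 0.

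The processing decided the side of the threshold. miR-7-5p stayed higher with ERβ in 15 of 15 alternatives, with log2 fold changes of 0.17 to 0.40, and passed the test in 6 of them (adjusted p from 0.00200 to 0.311 over all 15). It passed when scaled by upper quartiles (0.36) or by library totals (0.40). These scalings also moved the median of all miRNAs, to 0.10 and 0.14. Relative to that median, miR-7-5p was at 0.26 under each of the 4 scalings. limma-voom gave an adjusted p of 0.0472 and the DESeq2 test one of 0.0674, at nearly the same fold change of 0.25.

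Knockout library S2 stood apart from the other 2 knockout libraries and moved this result. Compared with the other knockout libraries over the tested miRNAs, it gave chi-square values of 307 and 331 per degree of freedom, while the remaining pairs within a group gave 12.2 to 21.2. It also had the lowest miR-7-5p of all 6 libraries in CPM and in share of counts, though not in expected counts. Without it the log2 fold change of miR-7-5p was smaller, 0.17 ± 0.04, and passed the test (edgeR adjusted p = 0.00349), in a fit that called 122 miRNAs higher and 157 lower. Without any of the other 5 libraries the adjusted p was 0.0583 to 0.209. What set library S2 apart was not tested.

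**Figure D3:**
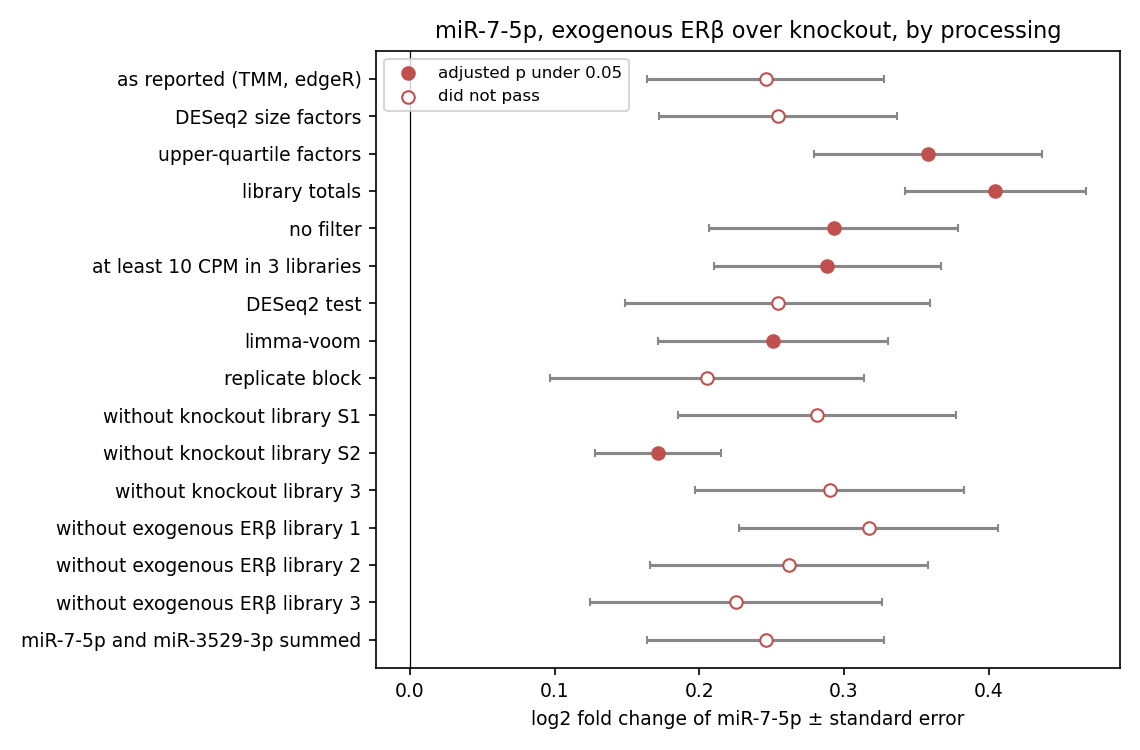
Log2 fold change of miR-7-5p (exogenous ERβ over knockout) under each processing alternative, with its standard error; filled points passed an adjusted p of 0.05. The values run from 0.17, without knockout library S2, to 0.40, with library totals, and none lies below 0.

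miR-7-1-3p, the passenger strand of the hairpin in HNRNPK, was far scarcer than the guide and did not differ detectably. It had 795, 1126 and 1131 counts with ERβ, against 822, 833 and 720 counts in knockout libraries S1, S2 and 3. In TMM-scaled CPM these were 71.6, 75.3 and 76.5 with ERβ, against 74.7, 68.8 and 73.2 in knockout cells. On that scale the groups overlapped, unlike the shares of all counts given above. The means were 74.5 ± 2.51 CPM with ERβ and 72.3 ± 3.06 CPM in knockout cells (SD, n = 3 each). Its log2 fold change was 0.04 ± 0.09 (SE; 95% interval -0.16 to 0.25; edgeR adjusted p = 0.783). The interval reaches past the fold change of the guide to 0.25, so a change of that size is within it. No alternative brought miR-7-1-3p past the threshold (adjusted p 0.102 to 0.923 over 15).

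miR-7-2-3p, the passenger of the hairpin on chromosome 15, was at or near 0 in every library and was too scarce to test. ERβ libraries 1, 2 and 3 had 0, 0 and 1 counts, against 0, 0 and 1 counts in knockout libraries S1, S2 and 3. A count of 0 allows up to 3 counts, which is 0.201 to 0.305 CPM, so no fold is given. Of all passenger counts, miR-7-1-3p made up 99.97 ± 0.0510% with ERβ and 99.95 ± 0.0801% in knockout cells (SD, n = 3 each; exact two-sided permutation p = 1). Where no miR-7-2-3p was counted, its share of passenger counts could still be up to 0.266 to 0.377% with ERβ and 0.360 to 0.365% in knockout cells, for counting error only. These shares describe passenger strands, and how much of the guide came from each hairpin was not measured.

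The other names at the chromosome 15 locus were also too scarce to test. miR-1179, whose hairpin starts at 88608107 on the same strand, had 7, 9 and 9 counts with ERβ, against 10, 3 and 3 counts in knockout cells. miR-3529-3p is annotated opposite the guide and is the exact reverse complement of miR-7-5p:
miR-3529-3p: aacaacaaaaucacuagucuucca
It had no counts in the ERβ libraries and 0, 0 and 1 counts in knockout libraries S1, S2 and 3, and so did miR-3529-5p. Almost no reads were given the name of the opposite strand, and adding miR-3529-3p to miR-7-5p left its log2 fold change at 0.25.

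The guide outnumbered its passenger by more with exogenous ERβ, in every library. There were 233, 241 and 238 counts of miR-7-5p per count of miR-7-1-3p in ERβ libraries 1, 2 and 3, against 209, 194 and 216 in knockout libraries S1, S2 and 3. The groups did not overlap, also when library S2 is left aside. This ratio needs no scaling between libraries, and it averaged 237 ± 4.17 with ERβ and 206 ± 11.4 in knockout cells (SD, n = 3 each). An exact two-sided permutation test gave p = 0.1 for the log2 ratio, the smallest value that 3 against 3 libraries allow. The log2 ratio was 7.89 ± 0.03 with ERβ and 7.69 ± 0.08 in knockout cells, a difference of 0.21, and of 0.16 without knockout library S2.

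Expressed as a share, the guide was 99.58 ± 0.00734% of miR-7 counts with ERβ and 99.52 ± 0.0269% in knockout cells (SD, n = 3 each; exact two-sided permutation p = 0.1). The passenger's share was 0.427% (exact Clopper-Pearson 95% interval 0.398 to 0.458%), 0.413% (0.389 to 0.437%) and 0.418% (0.394 to 0.443%) in ERβ libraries 1, 2 and 3. In knockout libraries S1, S2 and 3 it was 0.476% (0.444 to 0.510%), 0.514% (0.480 to 0.550%) and 0.461% (0.428 to 0.496%). All 3 ERβ values lay below the knockout values, but the interval of knockout library 3 overlapped that of each ERβ library, and the interval of knockout library S1 overlapped that of ERβ library 1. Intervals cover counting error only.

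Shifts of this size between arms were not rare. Of 51 other arm pairs in which both arms averaged at least 500 counts, 25.5% also had no overlap between the groups, and 14 (27.5%) had a larger absolute difference in log2 ratio. Their median absolute difference was 0.09, against 0.21 for miR-7. Pairs with larger differences included miR-335 (-0.59), miR-30d (-0.52) and miR-200c (0.47), as log2 of 5p over 3p, ERβ minus knockout. For miR-7 the comparison is not that of a single hairpin, since the guide is shared and the passenger comes from MIR7-1 alone.

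**Figure D4:**
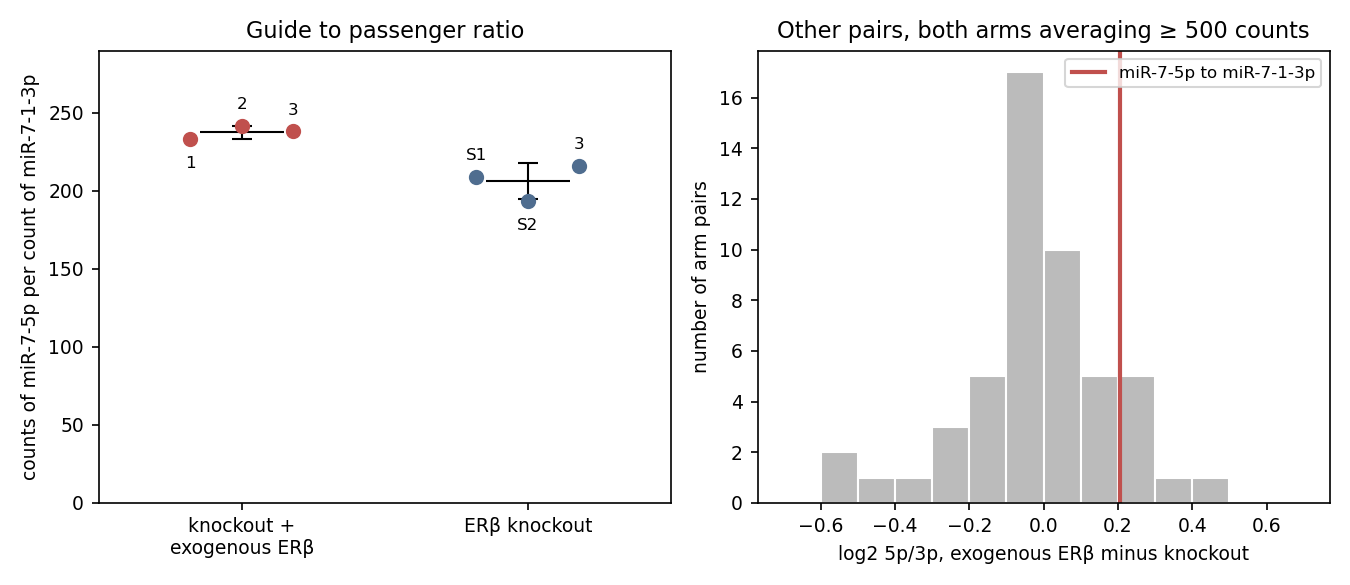
Left, counts of miR-7-5p per count of miR-7-1-3p in each library, from 0, with the mean and SD (n = 3 per group). Right, number of other arm pairs (both arms averaging at least 500 counts, n = 51) by the difference in log2 5p/3p ratio between the groups; the vertical line marks miR-7 at 0.21, within the spread of the other pairs.

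Other miRNAs described as repressors of EGFR were lower with ERβ or did not pass. Of 12 listed beside miR-7-5p, 9 were tested, and 4 were lower and 0 higher with ERβ (edgeR; at an unadjusted p under 0.05, 6 lower and 0 higher; 0 higher also by DESeq2 and by limma-voom). Over the alternatives 3 to 5 of the list were lower and 0 were higher. Over all tested miRNAs 13.3% were lower and 9.83% higher. The median log2 fold change of the 9 was -0.43, against -0.01 over all tested miRNAs. The list was drawn up with earlier results of these data known and is not independent evidence of a direction.

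miR-146a-5p, known for holding back NF-κB signalling, fell most of the 9. It had 23.9, 23.7 and 20.6 CPM with ERβ, against 65.8, 63.5 and 64.0 CPM in knockout cells (log2 fold change -1.50 ± 0.10; edgeR adjusted p = 3.34e-05). Its paralog miR-146b-5p fell as well (-0.73 ± 0.08). miR-27b-3p, close to miR-7-5p in abundance, fell to 14441, 14473 and 15584 CPM with ERβ, against 20152, 19113 and 20883 CPM in knockout cells (-0.43 ± 0.07). On that scale every ERβ library had less miR-27b-3p than miR-7-5p, and every knockout library had more. These are read numbers in CPM, one mature strand per read, and capture can differ between sequences.

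miR-542-5p was the remaining called member, at 24.0 ± 0.922 CPM with ERβ (SD, n = 3), against 33.6, 55.4 and 35.7 CPM in knockout libraries S1, S2 and 3 (-0.80 ± 0.18; edgeR adjusted p = 0.0123). It lost the call without any single ERβ library (adjusted p 0.0655 to 0.0784). The 5 tested members that did not pass were miR-574-3p (-0.52 ± 0.22), miR-491-5p (-0.42 ± 0.16), miR-27a-3p (-0.07 ± 0.06), miR-128-3p (-0.06 ± 0.09) and miR-218-5p (0.21 ± 0.14). Without knockout library S2 these did not pass either, and their log2 fold changes were -0.14 for miR-574-3p, -0.28 for miR-491-5p, -0.08 for miR-27a-3p, 0.04 for miR-128-3p and 0.09 for miR-218-5p. Of the 5, only miR-574-3p passed in any alternative, which was the fit without a filter (-0.47, edgeR adjusted p = 0.00311). miR-133a-3p, miR-133b and miR-145-5p were too scarce to test, with at most 8 counts in a library.

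Of 12 miRNAs described as repressors of ERBB2 or ERBB3, the receptors that pair with EGFR, 11 were tested, with 1 higher and 4 lower by edgeR, beside 9.83% higher and 13.3% lower over all tested miRNAs (median log2 fold change -0.29, against -0.01 over all). The higher one was miR-205-5p, named above; miR-152-3p (-0.70 ± 0.08), miR-199b-5p (-0.80 ± 0.10) and miR-143-3p (-1.15 ± 0.15) were the lower ones with the smallest adjusted p. With library totals 2 of this list were higher.

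miR-671, which directs cleavage of CDR1-AS, was the one miRNA set beside miR-7 for that circular RNA. miR-671-5p had 242, 235 and 217 CPM with ERβ, against 213, 228 and 203 CPM in knockout cells, and the groups overlapped (0.11 ± 0.09; edgeR adjusted p = 0.425). It passed without knockout library S2 (0.15 ± 0.06; adjusted p = 0.0428). miR-671-3p was at 4.83 ± 0.0813 CPM with ERβ and 5.12 ± 1.73 CPM in knockout cells (-0.10 ± 0.23). Neither strand passed, nor did either at an unadjusted p under 0.05 or by DESeq2 or limma-voom.

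Across the 6 libraries, the miRNAs whose mean-centred log2 CPM lay nearest to that of miR-7-5p were miR-570-3p, miR-2355-5p and miR-17-3p. They were taken from 389 others averaging at least 10 CPM, and their root mean square distances were 0.0447, 0.0458 and 0.0486. All 3 were higher in every ERβ library than in any knockout library and lowest in knockout library S2, as miR-7-5p was. This likeness follows from how they were chosen, by their values in these same libraries, and is not separate evidence. None passed the test (adjusted p = 0.173, 0.0632 and 0.274; edgeR). miR-570-3p, for example, had 118, 119 and 118 CPM with ERβ, against 106, 91.1 and 110 CPM in knockout cells. For miR-7-1-3p the nearest were miR-30a-5p, miR-148b-3p and miR-335-5p, at 0.0357, 0.0361 and 0.0378.

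Library totals ranged from 10288415 to 14296902 expected counts. The libraries were checked against markers of the labelled cells. Epithelial miRNAs were abundant: the 8 listed summed to 93312 to 98066 CPM with ERβ and 94615 to 110661 CPM in knockout cells, with 1 higher and 4 lower (median log2 fold change -0.25; from 1 to 6 lower over the alternatives). For these and the following markers the shares over all tested miRNAs were 9.83% higher and 13.3% lower, and 34.4% had an unadjusted p under 0.05. Of 18 markers of blood, endothelial, stromal, muscle, neural and liver cells, 9 were tested, with 0 higher and 3 lower (median -0.30; 4 lower and 0 higher at an unadjusted p under 0.05; 0 higher also by DESeq2 and limma-voom). They summed to 18179 to 20077 CPM with ERβ and 21672 to 23237 CPM in knockout cells, nearly all of it miR-126-3p and miR-126-5p, the miRNAs of EGFL7. The lower ones were miR-126-3p, miR-143-3p and miR-1-3p, a muscle miRNA with 6, 11 and 4 counts with ERβ, against 37, 34 and 38 counts in knockout cells. Over the alternatives 0 or 1 were higher and 1 to 4 lower. Of the blood markers, miR-142-3p had 148, 221 and 176 counts with ERβ, against 175, 121 and 135 counts in knockout cells. miR-142-5p had at most 74 counts in a library. The other blood markers were near the floor: miR-223-3p, miR-451a, miR-150-5p and miR-144-3p had at most 15, 16, 11 and 9 counts in a library. miR-122-5p (liver) had 223, 342 and 424 counts with ERβ, against 226, 208 and 191 counts in knockout cells, and did not pass (0.33 ± 0.15; edgeR adjusted p = 0.153). No marker was at 0 in every library, and the scarcest were miR-124-3p (neural), with no counts in ERβ libraries and 0.99 of a count in knockout library S2, miR-133b (muscle), with no counts in ERβ libraries and 0.33 of a count in knockout library 3, and miR-206 (muscle), with at most 1 count in any library. The part of other cells in the miR-7 values was not tested, and in bulk RNA a different share of cells cannot be told apart from a different level per cell.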

How the data were processed

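Small RNA of 6 KPL4 samples was sequenced from libraries made with a QIAseq miRNA kit, per the labels' protocols. The submitters' processing notes name FastQC, Trim Galore and GRCh38. Aligner, counter, annotation release and any collapsing of molecular identifiers: not given in the sources used here. Expected counts of each mature miRNA were deposited by the authors. Columns were assigned to groups by name. Of the knockout columns 2 carry the number 1, so they are called S1 and S2 after their index and are known by group only.

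After rounding, edgeR 4.0.16 (R 4.3.3) was run with filterByExpr (minimum count 10, minimum total 15), TMM scaling and the robust quasi-likelihood test without covariates over all 6 libraries, with Benjamini-Hochberg adjustment over 783 miRNAs at 0.05. These held 99.98% of counts. CPM use unrounded counts over TMM-scaled totals, and 3 counts correspond to 0.201 to 0.305 CPM. Standard errors were the absolute log2 fold change divided by the root of F. Ratios and shares used exact two-sided permutation tests (scipy 1.17.1). Likeness used log2(CPM + 0.5). The test was tried on simulated counts. Alternatives were 3 other scalings, no filter, 10 CPM in 3 libraries, the DESeq2 1.42.0 test, limma-voom (limma 3.58.1), each library left out in turn, a replicate block, and miR-7-5p summed with miR-3529-3p. The ratio of guide to passenger on the log2 scale was added after the data were seen.

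Named were the 3 members, seed relatives and the reverse complement, all of the EGFR, CDR1-AS and MIR7-2 lists, up to 3 of each other list by smallest adjusted p, the 3 nearest patterns and the 3 neighbours on each side in abundance. miR-374a-5p, the arm pairs with large shifts, miR-126-5p, miR-206, miR-124-3p, miR-142-3p, miR-122-5p, miR-183-5p and the likeness to miR-7-1-3p were chosen after their values were seen, and the seed-match search was added after the data were seen; 1 gene of that search is not reported here. miR-137-3p and miR-129-1-3p were also named after their values were seen. Members and lists were chosen with earlier results of these data known.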

Additional observations from a re-analysis of the deposited data

How the results depend on the processing

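The log2 fold change of miR-7-5p passed the adjusted threshold without a filter (0.29), with 10 CPM required in 3 libraries (0.29), under limma-voom (0.25), and when scaled by upper quartiles (0.36) or by totals (0.40). With a library left out it ranged from 0.17 to 0.32. The scalings moved the median of all miRNAs. So did the filters, from -0.01 to 0.04 without a filter and to 0.02 with 10 CPM required. Relative to that median, miR-7-5p was at 0.26 and 0.27 under these filters, against 0.26 as reported. What else moved the adjusted p was not tested. The numbers of miRNAs higher and lower with ERβ, 77 and 104, became 123 and 70 by upper quartiles, 146 and 61 by totals, and 62 and 66 under the 10 CPM filter, where fewer miRNAs were tested. With a library left out they ranged from 49 to 122 higher and from 58 to 157 lower. miR-7-2-3p could be fitted only without a filter, on 1 count per group, and no fold is given. The difference in the share of miR-7-1-3p among passengers, 0.0168 percentage points, ranged from -0.0294 to 0.0462 with a library left out and reversed without knockout library 3, which held 1 of the 2 counts of miR-7-2-3p.

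With a replicate block by the numbers in the column names, 38 miRNAs were higher and 50 lower. In that fit miR-7-5p was at 0.21 ± 0.11 (edgeR adjusted p = 0.311). No knockout column carries the number 2, so ERβ library 2 was alone in its block and added nothing to the difference. Of the 3 pairs of columns across groups with the same number, 2 had deviations from their group means that correlated at 0.14 and 1 at -0.10, against -0.13 to 0.07 for pairs with different numbers. Pairing was therefore not established. Guide share and log2 ratio kept their direction with counts rounded, counts summed per group and each library left out, with ratio differences of 0.16 to 0.24. Depth limits miR-7-2-3p.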

Other observations

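Besides miR-7, some miRNAs typical of neural and endocrine cells were counted in KPL4 cells, while others of the same list were nearly absent. miR-124-3p had 0.99 of a count in knockout library S2 and no counts elsewhere. miR-137-3p had 1 count in ERβ library 1 and no counts elsewhere, and miR-129-1-3p had at most 3 counts in a library. Of 14 listed beside miR-7-5p, 11 were tested, with 1 higher and 3 lower with ERβ by edgeR (median log2 fold change -0.19, against -0.01 over all tested miRNAs, of which 9.83% were higher and 13.3% lower). miR-375-3p, an islet and luminal miRNA, had 188 ± 17.3 CPM with ERβ and 279 ± 23.0 CPM in knockout cells (SD, n = 3 each; -0.57 ± 0.10, adjusted p = 0.00320). miR-129-5p (-0.45 ± 0.13) and miR-9-3p (-0.28 ± 0.08) were also lower, while miR-183-5p (0.22 ± 0.07) was higher. Of these calls, that of miR-375-3p held in 14 of 14 alternatives, that of miR-183-5p in 7, that of miR-129-5p in 5 and that of miR-9-3p in 4, and the counts ran from 0 to 2 higher and from 1 to 4 lower. Without any single ERβ library only miR-375-3p passed (adjusted p 0.0109 to 0.0303). The list was drawn up with earlier results known.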
